A study of Mus musculus with 1203 samples.

Results

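Among single cells sorted from mouse colon, 61 of the 856 that passed a filter on detected genes carried RNA of the cell division machinery and are called cycling cells here. They were chosen by a rule on the measured values: at least 1000 genes above 0 TPM (the usual length-normalised unit of transcript abundance), and at least 4 of the 8 genes Mki67, Top2a, Stmn1, Tyms, Pcna, Mcm3, Mcm5 and Mcm6 above 5 TPM. The levels of those 8 genes are therefore a description and not a finding. The 795 passing cells that did not meet the rule are called other cells. All mice were female and 11 weeks old, and were either wild type or Villin-Cre;Ipmk f/f, in which Cre from the Villin promoter, active in the intestinal epithelium, acts on floxed alleles of Ipmk, the gene for inositol polyphosphate multikinase. Of 1203 wells, 1083 are labelled tuft cells, sorted as EPCAM+/SIGLEC-F+, and 120 are labelled epithelial cells, with no gate given in the sources used. Wells lie in 7 plate sets: sets 1, 3 and 6 are wild type, and sets 2, 4, 5 and 7 carry the conditional knockout label. No label names an animal and no plate set holds both genotypes. Each genotype was thus 1 sample, no tests or p-values are given, and each SD is taken over plate sets, whose spread may be technical.

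The colon lining is renewed from stem cells at the crypt base, whose daughters divide several times as transit-amplifying cells before they mature into absorptive colonocytes, mucus-secreting goblet cells, hormone-secreting enteroendocrine cells or chemosensory tuft cells. Entry into DNA synthesis is driven by E2F factors, which switch on genes for the replication helicase, the polymerases and nucleotide supply. Later genes, for chromosome condensation, the spindle and its checkpoint, peak towards mitosis and are controlled largely through CCAAT boxes and the cell-cycle homology region (CHR). Mature tuft cells are held to be mostly out of the cycle, and Trpm5, a cation channel of taste signalling, and Dclk1, a microtubule-associated kinase, are their usual marks.

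Promoters of the 2 genes with the largest differences between cycling and other cells in a list of DNA replication genes (Uhrf1 and Mcm7) and the 2 in a list of mitosis genes (Ube2c and Cdk1) are shown to let these control elements be seen. They are RefSeq sequences on build GRCm38.p6, from 250 bases before to 50 after a start, written 5′ to 3′ on the strand of the gene. Capitals mark E2F sites (TTTGGCGC or TTTCGCGC), CCAAT boxes and CHR elements (TTTGAA or TTCGAA), each searched on both strands. Uhrf1 (chr17:56304063-56304362, plus strand) had 1 E2F match and 2 CCAAT boxes, Mcm7 (chr5:138171834-138172133, minus strand) 1 E2F match, 3 CCAAT boxes and 1 CHR, Ube2c (chr2:164769679-164769978, plus strand) 6 CCAAT boxes and 1 CHR, and Cdk1 (chr10:69352863-69353162, minus strand) 1 E2F match, 3 CCAAT boxes and 2 CHR elements. In Mcm7 the letters of the E2F match and of 1 CCAAT box overlap. In Ube2c, 2 of the 6 CCAAT boxes overlap, being 1 marked stretch read on both strands. Both Uhrf1 and Mcm7 have 2 starts in the table, and the window with the E2F letters is shown, a choice made after the search; the other window of each holds CCAAT boxes alone.
Uhrf1: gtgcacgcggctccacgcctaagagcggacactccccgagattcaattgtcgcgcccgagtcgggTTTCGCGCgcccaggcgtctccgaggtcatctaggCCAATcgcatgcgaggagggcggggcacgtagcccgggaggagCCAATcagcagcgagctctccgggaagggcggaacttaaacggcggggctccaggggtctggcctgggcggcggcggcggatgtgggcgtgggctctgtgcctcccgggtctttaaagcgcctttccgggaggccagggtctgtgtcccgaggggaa
Mcm7: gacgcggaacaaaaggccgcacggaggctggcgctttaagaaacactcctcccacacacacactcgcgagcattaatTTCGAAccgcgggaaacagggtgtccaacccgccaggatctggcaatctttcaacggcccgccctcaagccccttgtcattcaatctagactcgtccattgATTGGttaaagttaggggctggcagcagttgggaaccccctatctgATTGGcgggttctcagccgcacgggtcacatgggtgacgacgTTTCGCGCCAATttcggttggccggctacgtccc
Ube2c: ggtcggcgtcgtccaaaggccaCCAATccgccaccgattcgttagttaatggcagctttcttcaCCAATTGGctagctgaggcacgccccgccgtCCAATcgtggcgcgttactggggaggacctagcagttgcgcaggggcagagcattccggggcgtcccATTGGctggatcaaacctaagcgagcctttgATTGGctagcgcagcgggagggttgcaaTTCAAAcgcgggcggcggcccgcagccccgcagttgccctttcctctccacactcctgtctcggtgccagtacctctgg
Cdk1: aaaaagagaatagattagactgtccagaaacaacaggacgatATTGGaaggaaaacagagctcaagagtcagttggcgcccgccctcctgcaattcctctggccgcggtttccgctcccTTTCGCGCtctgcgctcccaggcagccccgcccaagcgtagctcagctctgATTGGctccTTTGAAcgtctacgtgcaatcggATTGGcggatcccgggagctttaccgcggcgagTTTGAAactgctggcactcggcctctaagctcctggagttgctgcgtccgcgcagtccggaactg

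The letters differed between the lists. At least 1 promoter with an E2F match was found for 28.6% of the 35 replication-list genes with a sequence (of 44 listed), for 4.55% of the 44 mitosis-list genes with one (of 51), and for 0.929% of all 27025 genes in the table. CCAAT boxes were in 57.1% of the replication list, 72.7% of the mitosis list and 41.1% of all genes. CHR letters were in 22.9%, 77.3% and 21.7%. Counted over all 32851 promoters of 300 bases, the shares were 0.813% for E2F, 37.4% for CCAAT and 19.2% for CHR. Over the 617 genes with a promoter that were higher in cycling cells by the rule given below, 3.57% held E2F letters, 47.5% CCAAT and 18.5% CHR, against 2.18%, 45.3% and 16.3% of the 2342 genes with a promoter among all those compared. A match is a description of letters and not a binding site.

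Read depth cannot be recovered from TPM, and detected genes per cell were used in its place. Cycling cells had a median of 4159 detected genes (1539 to 7695) and other cells 2513 (1000 to 6715). Because of this gap, the main comparisons were repeated against the 3 other cells of the same plate set nearest in detected genes to each cycling cell. This depth-matched set held 180 draws, some cells being drawn more than once, with a median of 4188 genes against 4174 in the cycling cells of the 6 plate sets used. The entry for 18S ribosomal RNA took 19.4% to 88.9% of a cycling cell's TPM. In 4 cycling cells, all wild type and 1 of them a carrier of Trpm5 or Dclk1, it was 19.4% to 28.7% while every other cycling cell had at least 66.3%; 37 of all 856 cells were under 50%. Counts without those 37 cells are given beside the main ones. No pair of passing cells had identical values. Wells holding more than 1 cell were not searched for.

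Cycling cells were found in all 7 plate sets and made up 7.13% of passing cells (exact 95% binomial interval 5.49% to 9.06%, which, as all such intervals here, covers counting error only). Plate set 3 had the largest share, 14 cells (11.48%), followed by set 4 with 12 (10.4%). The remaining sets gave 5 cells (5.49%), 5 (5.32%), 6 (5.45%), 18 (6.16%) and 1 (3.12%) in sets 1, 2, 5, 6 and 7. By genotype the plate-set mean was 7.71% ± 3.28 (SD, n = 3) in wild type and 6.08% ± 3.09 (n = 4) under the knockout label. The values of the genotypes overlapped, and the difference of -1.63 percentage points became 0.25 points when plate set 3 was left out.

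**Figure D1:**
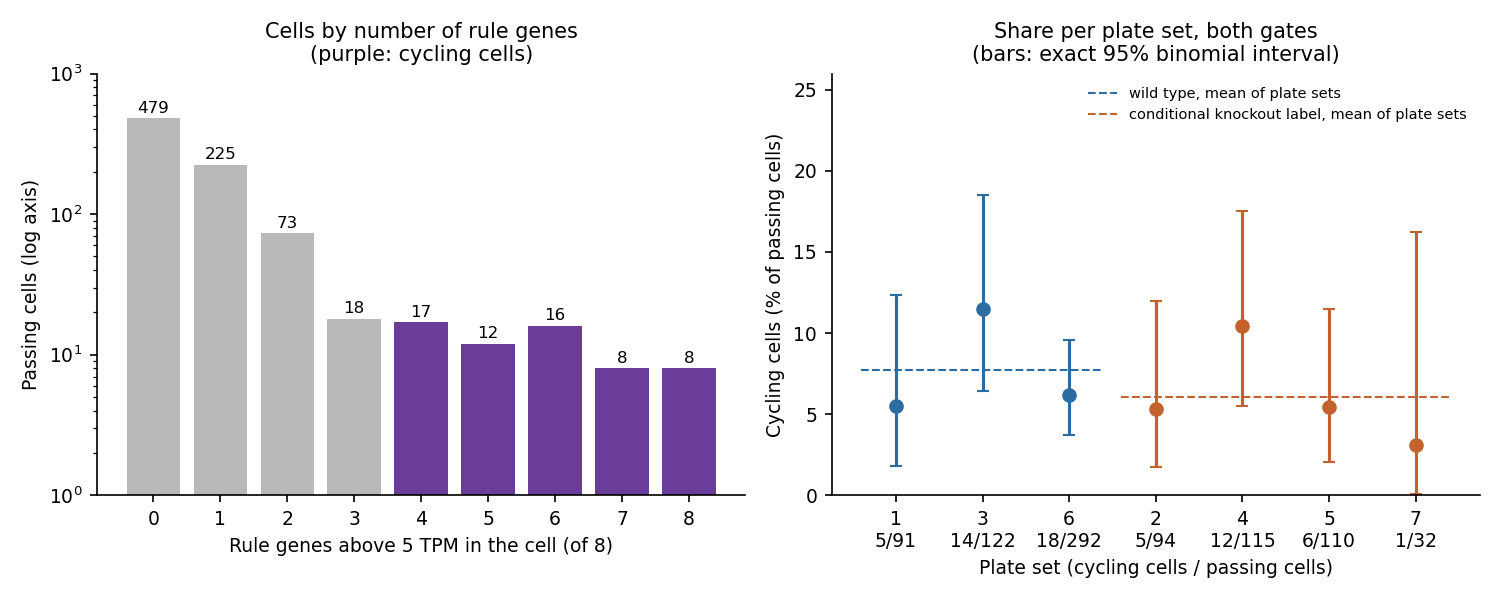
Left: number of passing cells (log axis) by how many of the 8 rule genes were above 5 TPM in the cell; purple bars are the cycling cells, 61 in all. Right: cycling cells as a percent of passing cells in each plate set, both gates, with exact 95% binomial intervals, wild type in blue and knockout label in orange, dashed lines the mean of plate sets; the intervals of all 7 sets overlap.

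The sort gates differed in their share of cycling cells. The epithelial wells gave 15 of 90 (16.7%, interval 9.64% to 25.995%) and the tuft wells 46 of 766 (6.01%, 4.43% to 7.93%). By plate set the epithelial share was 2 of 6, 2 of 19, 6 of 13, 3 of 9, 1 of 14, 0 of 20 and 1 of 9 in sets 1 to 7. For the count of 0 in set 6 the exact interval reaches 16.8%. The epithelial share was above the tuft share in 6 of the 7 plate sets, set 6 being the exception with 18 tuft wells (6.62%) and no epithelial one. In set 7 none of 23 tuft wells met the rule, with an exact interval up to 14.8%. With 6 to 20 epithelial cells a set, these shares are imprecise.

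Cells lay on both sides of the threshold with no gap between them. Of the other cells 73 had 2 and 18 had 3 of the 8 genes above 5 TPM, and the rest had at most 1. Of the cycling cells 17, 12, 16, 8 and 8 had 4, 5, 6, 7 and 8. Cells just outside, with exactly 3, and just inside, with exactly 4, had similar median levels of Gpx2 (167.4 and 165.4 TPM) and Dmbt1 (496.8 and 369.7 TPM), and had median detected genes of 4400.5 and 3760. Of the 18 just outside, 8 carried Trpm5 or Dclk1, and of the 17 just inside, 11.

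How the rule genes were spread over the cycling cells is set in part by the rule, which asks for 4 of 8 genes of which only Mki67 and Top2a belong to late stages of the cycle. Above 5 TPM, Stmn1, encoding a microtubule-destabilising protein of dividing cells, was in 58 of 61 cells, the helicase subunit Mcm6 in 56, the polymerase clamp Pcna in 54, Mcm3 in 48, Mcm5 in 46 and Tyms, which makes thymidylate, in 42. Top2a, the topoisomerase that untangles chromosomes, was in 23 and Mki67, which coats mitotic chromosomes, in 17. Both were present in 14 cells and neither in 35. In other cells Mki67 was above 5 TPM in 5 of 795 and Top2a in 12, never together. Longer lists without the rule genes are given as a description as well and are no independent support, since the cells were chosen largely by replication genes. Of 44 other replication genes a cycling cell had a median of 20 above 5 TPM (3 to 34), and of 51 mitosis genes a median of 7 (1 to 45). At least 10 replication genes were found in 48 of 61 cycling and 12 of 795 other cells, and at least 10 mitosis genes in 29 of 61 and 17 of 795. Both conditions were met by 24 cycling cells.

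**Figure D2:**
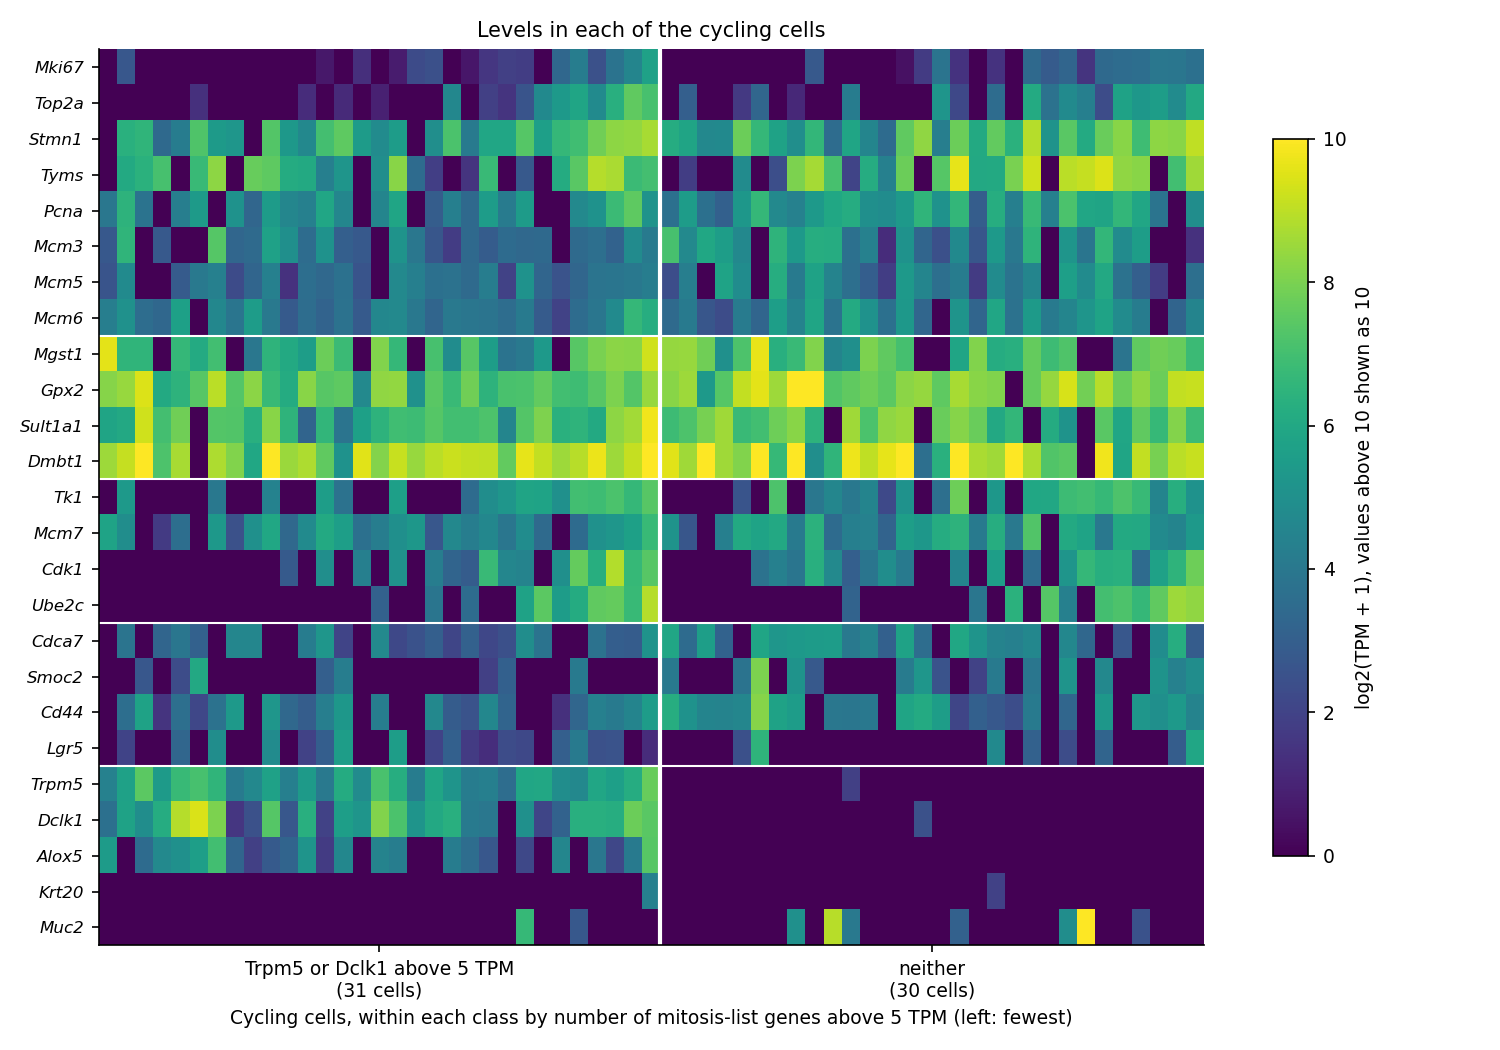
Level of 25 genes (rows) in each of the 61 cycling cells (columns) as log2(TPM + 1), capped at 10; the 31 carriers of Trpm5 or Dclk1 stand left of the line and the 30 non-carriers right, each ordered by the number of mitosis-list genes above 5 TPM. Gpx2 and Dmbt1 fill nearly every column (60 and 59 cells), Mki67 and Top2a a minority (17 and 23), and the tuft genes are confined mostly to the left block. Trpm5 and Dclk1 define that block, and Alox5 is the tuft gene shown that does not.

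For the comparison across genes, mean TPM was taken over the cycling cells and over the other cells of each plate set, and the difference in log2(mean TPM + 1) was averaged over plate sets 1 to 6, each with at least 5 cycling cells. A gene was called when it reached 10 TPM on average in cycling or other cells, differed at least 2-fold and had the same sign in every plate set. Of 3322 genes compared (rule genes aside), 847 were called higher in cycling cells, 25.5%, and a further 8.52% lower. The median of all compared genes was 0.60 on the log2 scale, so the difference of a gene is to be read against that shift. Against depth-matched cells the median was 0.01, and of 3580 genes 7.96% were called higher and 9.41% lower. Of these higher genes 95.8%, and of these lower genes 60.6%, were also called in the main comparison, which is 32.2% and 72.2% of the calls there. Of all calls, 74.96% were higher in the main comparison, 45.8% against depth-matched cells and 41.2% after centring on the median gene. After rescaling without 18S ribosomal RNA, mitochondrial genes and the most abundant other entries, 25.6% of calls were higher. The median of the 10055 genes then compared was -0.66, so the general direction depends on the scaling. Without cells low in 18S ribosomal RNA, over plate sets 2 to 6, the calls were 765 higher and 320 lower; keeping set 1 with its 4 remaining cycling cells, 22.8% of 2993 genes were higher and 10.9% lower. Counts for gene lists cover only genes that reached the 10 TPM floor; many did so through the cycling cells alone and then had to differ, so these counts describe the lists and carry no weight beyond that.

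Most replication genes outside the rule that could be compared were higher. Of 44 listed, 17 reached the floor, and 15 of them were called higher and none lower, with a median log2 difference of 2.48 (2.15 and 13 called against depth-matched cells). Mcm7, a further subunit of the helicase and the second promoter shown above, averaged 29.4, 23.1, 30.3, 38.4, 25.2 and 43.8 TPM in cycling cells of plate sets 1 to 6 and 4.20, 1.46, 1.59, 0.691, 2.41 and 1.60 TPM in other cells. Every cycling value lay above every other one, with a log2 difference of 3.50 ± 0.74 (SD, n = 6 plate sets; 3.21 depth-matched) and 54 of 61 cells above 5 TPM. Uhrf1, which couples DNA methylation to the replication fork, averaged 13.2 against 0.191 TPM (3.51 ± 0.65; 3.51 depth-matched). Cdt1, which loads the helicase, averaged 12.8 against 0.564 TPM (3.13 ± 0.58), Pold2, a polymerase delta subunit, 53.2 against 5.87 TPM (2.97 ± 0.77), and the flap nuclease Fen1 11.4 against 0.636 TPM (2.85 ± 0.66).

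Genes of nucleotide supply were higher too: 8 of the 10 that reached the floor (of 20 listed) were called higher and none lower, with a median of 2.31 (1.83 and 7 called depth-matched). Tk1, which salvages thymidine, was at 42.04, 39.3, 34.04, 50.7, 29.5 and 41.8 TPM in cycling cells of sets 1 to 6 and at 0.387 to 1.83 TPM in other cells. It was higher in all 6 sets, by 4.32 ± 0.54 (3.84 depth-matched), in 37 of 61 cells. Shmt1, which feeds folate carbon into thymidylate, averaged 33.997 against 2.11 TPM (3.51 ± 0.59) and was in 50 cells. Rrm2, the regulated subunit of ribonucleotide reductase, averaged 10.6 against 0.268 TPM (2.92 ± 1.102), and fell under the 10 TPM floor without plate set 3 (2.68) or 4 (2.79).

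Mitosis genes had differences as large in fewer cells. Of 51 listed, 22 reached the floor, 16 were called higher and none lower, with a median of 2.76 (3.06 and 15 called depth-matched). Ube2c, the ubiquitin-conjugating enzyme of mitotic exit, averaged 52.8, 53.4, 29.5, 52.5, 13.8 and 68.5 TPM in cycling cells and 0.808 to 2.94 TPM in others. It was higher in every set, by 3.91 ± 0.58 (4.45 depth-matched), although only 22 of 61 cells had it above 5 TPM. Cdk1, the mitotic kinase, averaged 34.3 against 1.17 TPM (3.79 ± 1.09; 4.14 depth-matched) in 36 cells, and its cyclin Ccna2 15.7 against 0.577 TPM (3.44 ± 0.52). Plate set 5, with 6 cycling cells, stood low for such genes: Top2a averaged 0.457 TPM there against 9.73 to 24.6 TPM in the other 5 sets, and Racgap1, of the dividing furrow, 0.272 TPM against 12.9 to 54.3 TPM.

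Chromatin and histone genes followed. Of 19 compared in a list of chromatin genes of dividing cells, 15 were called higher and none lower, with a median of 1.96 (1.47 and 11 called depth-matched). Hmgb2, a chromatin-bending protein, averaged 21.2 against 2.22 TPM (2.63 ± 1.04), and Hmgn2 100.8 against 20.1 TPM (2.13 ± 0.91). The replication-dependent histone gene Hist1h2ap had the largest positive difference of the genes named in this comparison, 836 against 14.003 TPM (5.60 ± 1.89), from 17 of 61 cells; it has near-identical copies among which reads cannot be assigned with certainty. Tcf19, a cell-cycle gene of late G1, averaged 29.4 against 0.324 TPM (4.48 ± 0.54; 4.65 depth-matched) in 33 cells. Pbk, a mitotic kinase, differed by 3.74 ± 1.55, Nrm, encoding a nuclear envelope protein, by 3.54 ± 2.08 (2.74 and under the floor without plate set 4), and Prdx4, a peroxiredoxin of the secretory pathway, by 3.53 ± 0.69.

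The switches of the G1 phase changed in the opposite sense from one another. Cdk4, the G1 kinase, was at 110, 116.4, 142.2, 161.2, 111.3 and 81.9 TPM in cycling cells of sets 1 to 6 and at 18.5, 15.1, 13.3, 7.22, 7.92 and 13.7 TPM in others, a difference of 3.19 ± 0.71 (2.05 depth-matched), and 59 of 61 cells had it. Its partner Ccnd1, cyclin D1, averaged 18.1 against 1.59 TPM (2.68 ± 1.08; 1.78 depth-matched). In the list of G1 cyclins and E2F regulators 5 of 8 compared were called higher and none lower (3 of 8 depth-matched). The inhibitors were lower: Cdkn1a, encoding p21, averaged 28.8, 7.53, 22.5, 17.4, 2.76 and 17.2 TPM in cycling cells and 123.3, 93.1, 50.98, 106.8, 95.6 and 64.2 TPM in others. Every cycling value lay below every other one (-2.62 ± 1.27; -2.63 depth-matched). Cdkn1c, encoding p57, averaged 2.44 against 49.6 TPM (-4.25 ± 1.22; -3.43 depth-matched) and was above 5 TPM in 6 cells. Neither Tob1 (0.66 ± 0.56) nor Btg2 (0.52 ± 0.94) was called.

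**Figure D3:**
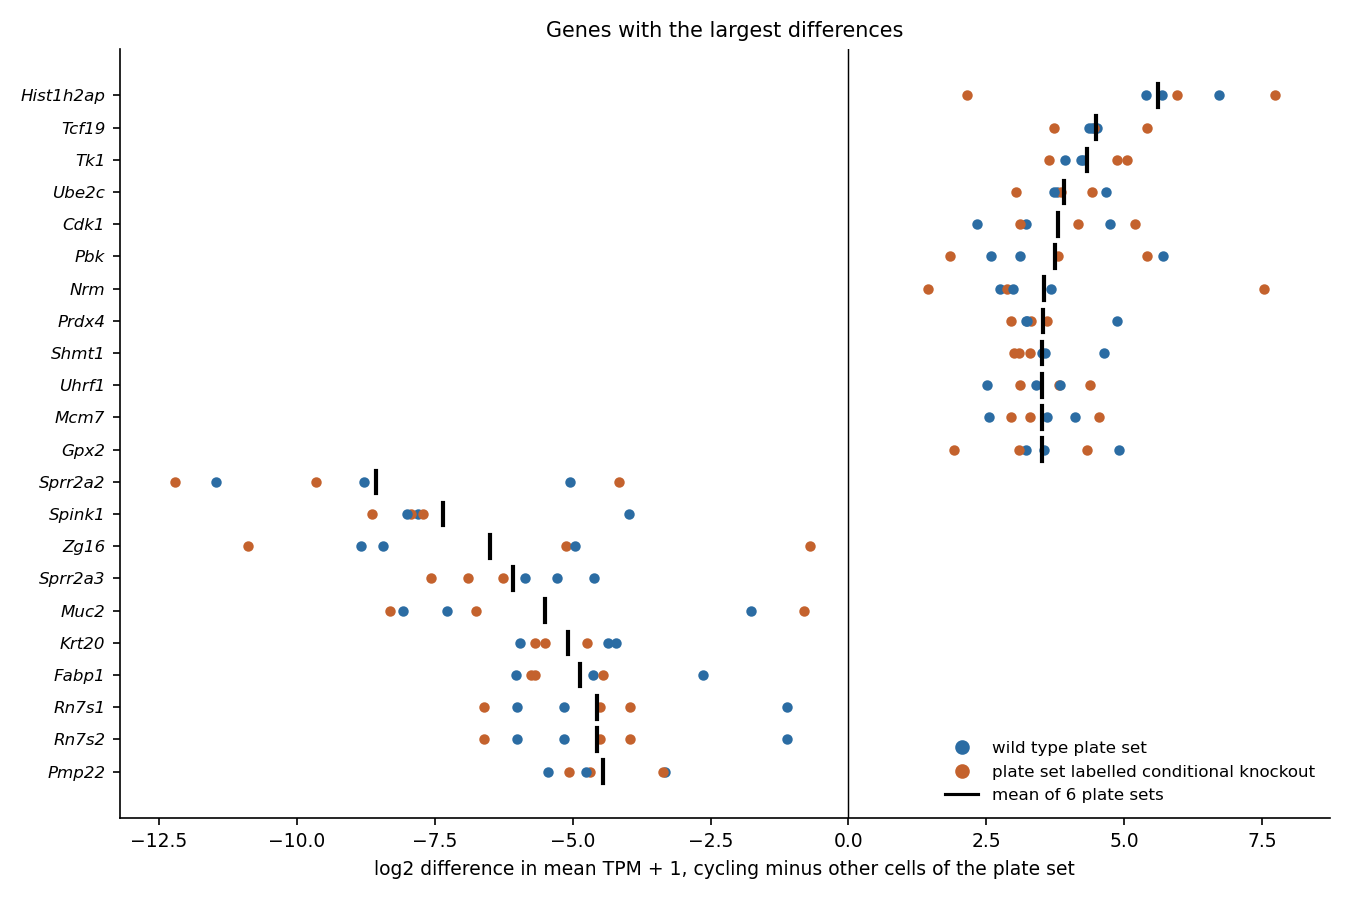
Difference in log2(mean TPM + 1) between cycling and other cells of each plate set (points; blue wild type, orange knockout label) for named genes with the largest called differences that are above 0 in both classes, with the mean of 6 plate sets as a bar. Tk1 and Ube2c sit in narrow ranges to the right, while Muc2 and Zg16 spread from near 0 to below -8.

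The label's markers beyond Stmn1 and Tyms are genes of mucosal defence and detoxification; they were named with these data known, so their presence here is not independent of the label. Gpx2, the epithelial glutathione peroxidase, was above 5 TPM in 60 of 61 cells and averaged 364.1, 170, 310.6, 395.9, 163.5 and 249.3 TPM against 11.1, 44.2, 32.6, 18.7, 18.4 and 20.4 TPM in other cells. No plate-set value of the classes overlapped, the difference being 3.50 ± 1.04 (2.04 depth-matched). Dmbt1, a secreted scavenger of bacteria, was in 59 cells and averaged 593 against 91.2 TPM (2.66 ± 0.56; 1.76 depth-matched). The sulfotransferase gene Sult1a1 was in 56 cells, at 162.4 against 33.96 TPM (2.34 ± 0.53; 1.09 depth-matched). Mgst1, a membrane glutathione transferase, was in 52 cells, at 150 against 19.97 TPM (2.82 ± 0.93), and against depth-matched cells its difference of 1.19 was not called. In the wider list of detoxification genes 9 of 17 compared were called higher and 1 lower (5 higher and 3 lower of 20 depth-matched). The one lower was Cyp2c55, a cytochrome P450 of the colon, at 10.2 against 80.4 TPM (-3.45 ± 1.98).

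Genes of growth were higher, less so at matched depth. In ribosome biogenesis 8 of 10 compared were called higher (4 of 10 depth-matched) and among ribosomal proteins 17 of 20 (6 of 20), with none lower. The nucleolar chaperone Npm1 averaged 99.7 against 13.8 TPM (2.79 ± 0.72; 1.52 depth-matched). Rplp0, of the ribosomal stalk, averaged 1176 against 264.2 TPM (2.14 ± 0.19; 1.08 depth-matched) and was in all 61 cells. Nuclear genes of oxidative phosphorylation were called higher in 7 of 18 cases, and in none against depth-matched cells or after centring.

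Stem cell and Wnt target genes split. Of 23 listed, 9 reached the floor, 5 were called higher and 1 lower (4 and 0 depth-matched), with a median of 1.67. Cdca7, a Wnt-responsive chromatin gene, averaged 23.99, 19.3, 12.8, 15.6, 23.7 and 18.3 TPM in cycling cells of sets 1 to 6 and 0.674 to 2.27 TPM in others, all 6 sets apart (3.13 ± 0.61; 2.44 depth-matched). Smoc2, secreted by crypt base cells, averaged 15.3 against 0.392 TPM (2.98 ± 1.35), with 51.8 TPM in set 1 and 3.04 to 13.4 TPM elsewhere. The set 1 value was that of 1 cell low in 18S ribosomal RNA (258.8 TPM; the other 4 were at 0), and without such cells Smoc2 averaged 6.46 against 0.412 TPM (1.99), with 0 in set 1, and was not called. Cd44 averaged 29.8 against 3.32 TPM (2.63 ± 0.92) and Slc12a2, an ion transporter of crypt cells, 20.002 against 1.57 TPM (2.80 ± 1.02). The one lower was Lgr5, the receptor that marks crypt base stem cells, at 18.7, 3.17, 5.83, 10.4, 0.252 and 6.53 TPM in cycling cells and 13.8 to 24.9 TPM in others (-1.54 ± 1.23); against depth-matched cells its -1.25 was not called. The same cell gave nearly all of the Lgr5 of set 1 (90.5 TPM); without cells low in 18S ribosomal RNA that set was at 0.765 TPM and the difference, still called, was -2.12. Of the other cells, 594 of 795 had Trpm5 or Dclk1 above 5 TPM, and the Lgr5 levels of such cells are given below. The part of that share in the Lgr5 difference was not tested. Olfm4 was listed at 0 in both classes.

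Few regulators of cell fate reached the floor. Of 7 compared, 3 were called higher and 1 lower (1 and 1 depth-matched), beside 25.5% and 8.52% of all genes compared. Hes1, the Notch effector that favours the absorptive line, averaged 20.9 against 0.988 TPM (3.09 ± 1.07; 2.75 depth-matched), but was at 0 in set 1 and not called without cells low in 18S ribosomal RNA (1.83). The homeobox gene Cdx2 of the intestine averaged 26.1 against 8.62 TPM (1.49 ± 0.19; 0.69 and not called depth-matched). Klf4, which accompanies exit from the cycle, was lower at 8.76 against 20.8 TPM (-1.32 ± 1.29), and without plate set 5 it was not called (-0.83).

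The cycling cells were epithelial by their RNA. Of 12 general epithelial genes a cycling cell had a median of 11 above 5 TPM and at least 7, and Epcam, the sorted surface protein, averaged 192.5 to 267.3 TPM against 101.9 to 135.7 TPM in others (0.83 ± 0.20; 0.07 depth-matched), which was not called. The keratin gene Krt18 was in all 61 cells but lower, at 220.6 against 1704 TPM (-3.12 ± 1.07). The median of this list was 0.22 in the main comparison and turned negative against depth-matched cells (-0.24) and after centring (-0.39). No cycling cell had any gene of the lymphocyte list or of the myeloid and eosinophil list above 5 TPM, and their summed levels reached at most 2.43 and 1.03 TPM per cell. From the stromal and endothelial list 10 cells had 1 gene, Pecam1 in 8 and Pdgfrb in 2, with none of the other genes in any cell. Ptprc, encoding the leukocyte antigen CD45 and also detected in tuft cells, averaged 0.879 TPM in cycling and 8.47 TPM in other cells.

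The mean levels of most colonocyte genes were lower, while a typical cell did not hold fewer of them. In the colonocyte list 11 of 13 compared were called lower and 1 higher (10 and 0 of 14 depth-matched), with a median of -3.20. Cell by cell, however, the summed list had a median of 493.9 TPM in cycling and 303.4 TPM in other cells, with 5 and 4 genes above 5 TPM. The other cells spread more widely, their upper quartile being 1155 TPM against 697.4 TPM and their highest cell 89134 TPM against 12694 TPM. Krt20, a keratin of the upper crypt, was listed at 0 in cycling cells of sets 1 to 5 and at 1.24 TPM in set 6, against 60.98, 25.7, 19.6, 44.4, 50.3 and 40.7 TPM in others. It was above 5 TPM in 1 cycling cell. Car1, the colonic carbonic anhydrase, averaged 140 against 1135 TPM (-4.33 ± 2.23), and Saa1, serum amyloid A, was listed at 0 in all cycling cells and averaged 64.1 TPM in others. Of the goblet list 2 of 11 compared were called lower (1 of 12 depth-matched): Muc2, the gel mucin, at 27.3 against 292.9 TPM (-5.50 ± 3.32), and Zg16, a mucus lectin, at 1.44 against 472.2 TPM (-6.49 ± 3.64). The summed goblet list had a median of 68.1 TPM in cycling and 29.7 TPM in other cells, with 2 and 1 genes above 5 TPM. The Muc2 difference rested on few cells, since with means of log values over cells it was 0.19; 8 cycling cells had it above 5 TPM. Further down were Sprr2a2, of the cornified envelope family and near-identical to its neighbours (-8.55 ± 3.31), and Spink1, a protease inhibitor, at 0 in sets 1 to 5 and 17.5 TPM in set 6, from 1 cell, against 207.9 to 396.1 TPM in others (-7.34 ± 1.68).

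Genes of the tuft programme were lower on average in cycling cells. Of 26 tuft core genes compared, 21 were called lower and none higher, with a median of -2.96 (22 of 27 and -2.89 depth-matched). Trpm5 averaged 10.4, 10.9, 42.4, 37.2, 9.05 and 34.7 TPM in cycling cells of sets 1 to 6 and 199.6, 140.3, 187.2, 204.8, 167.6 and 127.4 TPM in others, all cycling values lying below (-3.03 ± 1.02; -2.84 depth-matched). Dclk1 averaged 41.5 against 358.3 TPM (-3.76 ± 1.74) and Siglecf, encoding the sorted surface protein, 3.28 against 45.3 TPM (-3.81 ± 1.43; -3.78 depth-matched), with 12 of 61 cycling cells above 5 TPM. These means mix cells with and without the programme.

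Trpm5 or Dclk1 above 5 TPM was found in 31 of the 61 cycling cells (50.8%, interval 37.7% to 63.9%) and in 594 of 795 other cells (74.7%, 71.5% to 77.7%). Both genes were present in 26 cycling cells, Trpm5 alone in 5, Dclk1 alone in 0 (exact interval up to 5.87%) and neither in 30. By plate set the carriers were 1 of 5, 2 of 5, 9 of 14, 6 of 12, 3 of 6, 10 of 18 and 0 of 1. Tuft wells gave 28 of 46 (60.9%) against 80% of 720 other cells, and epithelial wells 3 of 15 against 18 of 75. By genotype the carriers were 20 of 37 in wild type and 11 of 24 under the knockout label. Counting any value above 0 instead of 5 TPM gave 33 of 61. Without the cells low in 18S ribosomal RNA the share was 52.6%.

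The carriers had more of the tuft programme than those genes alone. Of 31 other tuft core genes, carrier cycling cells had a median of 12 above 5 TPM, other carriers 21, and non-carriers 1 whether cycling or not. At least 10 were found in 21 of 31 carrier cycling cells, 1 of 30 non-carrier cycling cells, 91.4% of 594 other carriers and 1 other non-carrier. The non-carrier with many, 13, was a well of the epithelial gate with Dclk1 at 4.64 TPM, just under the threshold, and 1 of the 4 cycling cells low in 18S ribosomal RNA (28.7%). Carriers had a median of 4112 detected genes and non-carriers 4422.

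**Figure D4:**
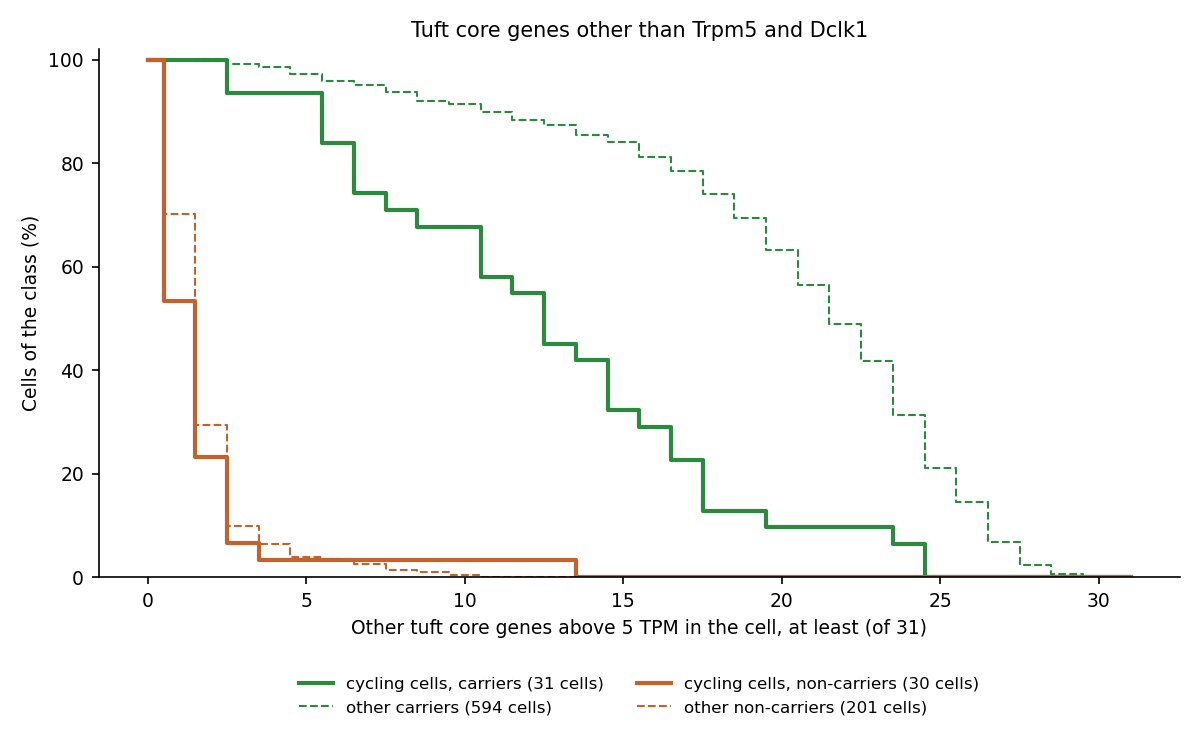
Percent of cells of a class (vertical axis) with at least the given number of the 31 other tuft core genes above 5 TPM (horizontal axis); solid lines are cycling cells, dashed lines other cells, green carriers and orange non-carriers of Trpm5 or Dclk1. At 10 genes the 31 carrier cycling cells stand at 67.7% and the other carriers at 91.4%, and both non-carrier classes are below 4%.

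Set against other carriers, the carrier cycling cells had lower tuft genes and higher cycle genes. This comparison could be made in plate sets 3, 4 and 6, which held at least 5 on each side. Of 2978 genes, 1017 were called higher (34.2%) and 11.1% lower, with a median of 0.71; at matched depth 13.7% of 3421 were higher and 17.9% lower, with a median of -0.003. The share of calls that were higher was 75.4% in the main comparison, 43.3% at matched depth and 40.4% after centring. Of 29 tuft core genes compared 27 were called lower and none higher, with a median of -1.72 (26 of 28 and -2.09 depth-matched). Trpm5, one of the genes that set the class, averaged 66.01, 74.4 and 62.4 TPM in carrier cycling cells of sets 3, 4 and 6 and 232.3, 288.99 and 160.9 TPM in other carriers (-1.70 ± 0.31, n = 3). Dclk1 averaged 194.96, 90.01 and 73.2 against 404.2, 558.3 and 404.2 TPM (-2.04 ± 0.86). For both genes every cycling value was below every other one.

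Tuft genes other than those that set the class were also lower among carriers. Siglecf, whose protein was part of the tuft sort, averaged 10.3 against 53.995 TPM (-2.30) and the kinase Matk 59.4 against 301.5 TPM (-2.28 ± 0.31). Gfi1b, a tuft transcription factor, averaged 0.578 against 10.1 TPM (-2.81 ± 1.02; under the floor without plate set 4, -2.23), Pou2f3, the factor that sets tuft identity, 7.68 against 16.6 TPM (-1.19), and Alox5ap and Ltc4s, of leukotriene synthesis, differed by -3.26 ± 2.71 and -1.95. Not called were Sh2d6 and Fyb, both higher in the cycling carriers of set 6 (680.2 against 526.7 TPM and 138.1 against 51.2 TPM). Atp2b4, a calcium pump, was at 0, 0 and 0.053 TPM in cycling carriers against 556.9, 1182 and 341.2 TPM in other carriers.

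The cycle genes in carriers went the way they did overall. Of the replication list 10 of 12 compared were called higher, of nucleotide synthesis 7 of 9 and of mitosis 12 of 19, none lower. Tk1 averaged 39.5, 15.1 and 41.5 TPM in carrier cycling cells of sets 3, 4 and 6 against 1.09, 0.682 and 1.05 TPM in other carriers (3.97 ± 0.62). Ube2c averaged 47.97 against 1.79 TPM (4.05 ± 0.72) and the survivin gene Birc5 31.5 against 0.912 TPM (4.03 ± 0.78). Ccnd1 averaged 14.9 against 0.727 TPM (3.20 ± 0.23; 2.26 depth-matched). Nusap1, of the spindle, had the largest positive difference (5.49 ± 3.94), set by 1126 TPM in set 4 against 3.44 and 22.6 TPM in the other sets.

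The 4 label markers outside the rule, Gpx2, Mgst1, Sult1a1 and Dmbt1, were called higher among carriers, at main and at matched depth. Gpx2 averaged 168.6, 312.2 and 223.1 TPM in carrier cycling cells against 31.6, 10.03 and 16.3 TPM in other carriers (3.63 ± 1.23; 3.09 ± 3.39 depth-matched), Mgst1 157.1 against 12.4 TPM (3.55 ± 0.99; 3.34) and Sult1a1 191.7 against 23.8 TPM (2.93 ± 0.18; 2.90). The depth-matched values spread widely, since the matched carriers of plate set 4 had almost none of these genes (1.43 TPM of Gpx2 and 0 of Mgst1). The glutathione transferase genes Gstm3 (29.4 against 2.50 TPM, 3.15 ± 0.46) and Gstm1 (125.8 against 18.01 TPM, 2.72 ± 0.62) were higher too, and in the detoxification list 12 of 17 compared were called higher and none lower (9 and 2 depth-matched). Few genes of the stem cell list reached the floor in carriers. Of 5 compared, 1 was called higher and 2 lower (0 and 3 of 4 depth-matched). The lower ones were Lgr5 at 8.41 against 23.5 TPM (-1.34 ± 0.40) and the RNA-binding gene Msi1 at 2.6004 against 10.5 TPM (-1.78 ± 0.48). Msi1 was under the floor without plate set 3 (-2.04). Counted cell by cell over the full list, the direction differed. Carrier cycling cells had a median of 5 genes above 5 TPM and other carriers 3, without matching for depth. Krt19 was higher, 448.9 against 95.1 TPM (2.20 ± 0.37), while Krt18, abundant in tuft cells, was lower, 445.1 against 2041 TPM (-2.16 ± 0.63).

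Among cells with neither Trpm5 nor Dclk1, cycling cells had lower colonocyte genes and higher cycle and crypt genes than the rest. In plate sets 3, 4 and 6, 1293 of 3867 genes were called higher (33.4%) and 9.93% lower, with a median of 0.85; at matched depth 752 of 3982 (18.9%) were higher and 11% lower, with a median of 0.34. Of the calls 77.1% were higher in the main comparison, 63.2% at matched depth and 43.6% after centring. Of 20 colonocyte genes compared 18 were called lower and none higher, with a median of -3.94 (17 of 20 depth-matched). A cycling cell of this class had a median of 5 colonocyte genes above 5 TPM, and at least 2, with a summed median of 496.9 TPM, against 11 genes and 3535 TPM in other non-carriers. Car1 was at 0, 0 and 18.5 TPM in non-carrier cycling cells of sets 3, 4 and 6 against 2047, 3180 and 3309 TPM in other non-carriers. Krt20 averaged 0.119 against 137.8 TPM (-6.91 ± 0.40), Cyp2c55 0.623 against 204.9 TPM (-7.16 ± 0.91) and Car4, a membrane carbonic anhydrase, 5.37 against 155.3 TPM (-5.77 ± 2.64). Aqp8, a colonocyte water channel, and Saa1 were listed at 0 in these cycling cells and averaged 32.996 and 73.2 TPM in the others. Other cells of this class also held RNA of the MHC class II chaperone Cd74 in sets 4 and 6 (1256 and 962 TPM, against 0 and 22.4 TPM in cycling cells) and of the myeloid lysozyme Lyz2 (715 and 147.2 TPM, against 0 in both), with neither in set 3, and their part in the comparison was not tested.

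The crypt genes of non-carrier cycling cells were called higher in 8 of 10 cases and lower in none (8 and 1 depth-matched). Ascl2, the transcription factor of crypt stem cells, averaged 20.6, 5.64 and 15.5 TPM in cycling cells of sets 3, 4 and 6 and 0, 0.555 and 0 TPM in other non-carriers (3.52 ± 1.25). Smoc2 averaged 13.6 against 0.272 TPM (3.37 ± 0.85), the Wnt target Axin2 13.4 against 0.618 TPM (2.76 ± 1.33) and Sox9, a crypt transcription factor, 17.4 against 2.22 TPM (2.28 ± 1.42). Without cells low in 18S ribosomal RNA, which leaves plate sets 4 and 6, Smoc2 (2.88) and Axin2 (2.24) fell under the floor, as they did without plate set 3 (2.88 and 2.15). The replication list had 23 of 24 compared called higher, nucleotide synthesis 14 of 15, mitosis 21 of 27 and chromatin 19 of 21, with none lower. Mcm7 averaged 41.3, 48.8 and 52.6 TPM against 0.413, 0 and 1.75 TPM (4.94 ± 0.68), and Tcf19 49.1 against 0.0626 TPM (5.50 ± 0.59). Birc5 was at 21.4, 45.7 and 36.1 TPM and listed at 0 in all other non-carriers. Of the label markers, Gpx2 was higher (442.7 against 37.6 TPM, 3.47 ± 0.50; 2.82 depth-matched), whereas Mgst1, Sult1a1 and Dmbt1 were not called at matched depth (-0.05, 0.83 and 0.74).

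The calls of these comparisons overlapped in part: of the genes called higher in cycling cells, 49.5% of those among carriers and 38.9% of those among non-carriers were shared, and 57 genes were lower in both, 17.3% and 14.8%. The difference between the differences was not tested.

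**Figure D5:**
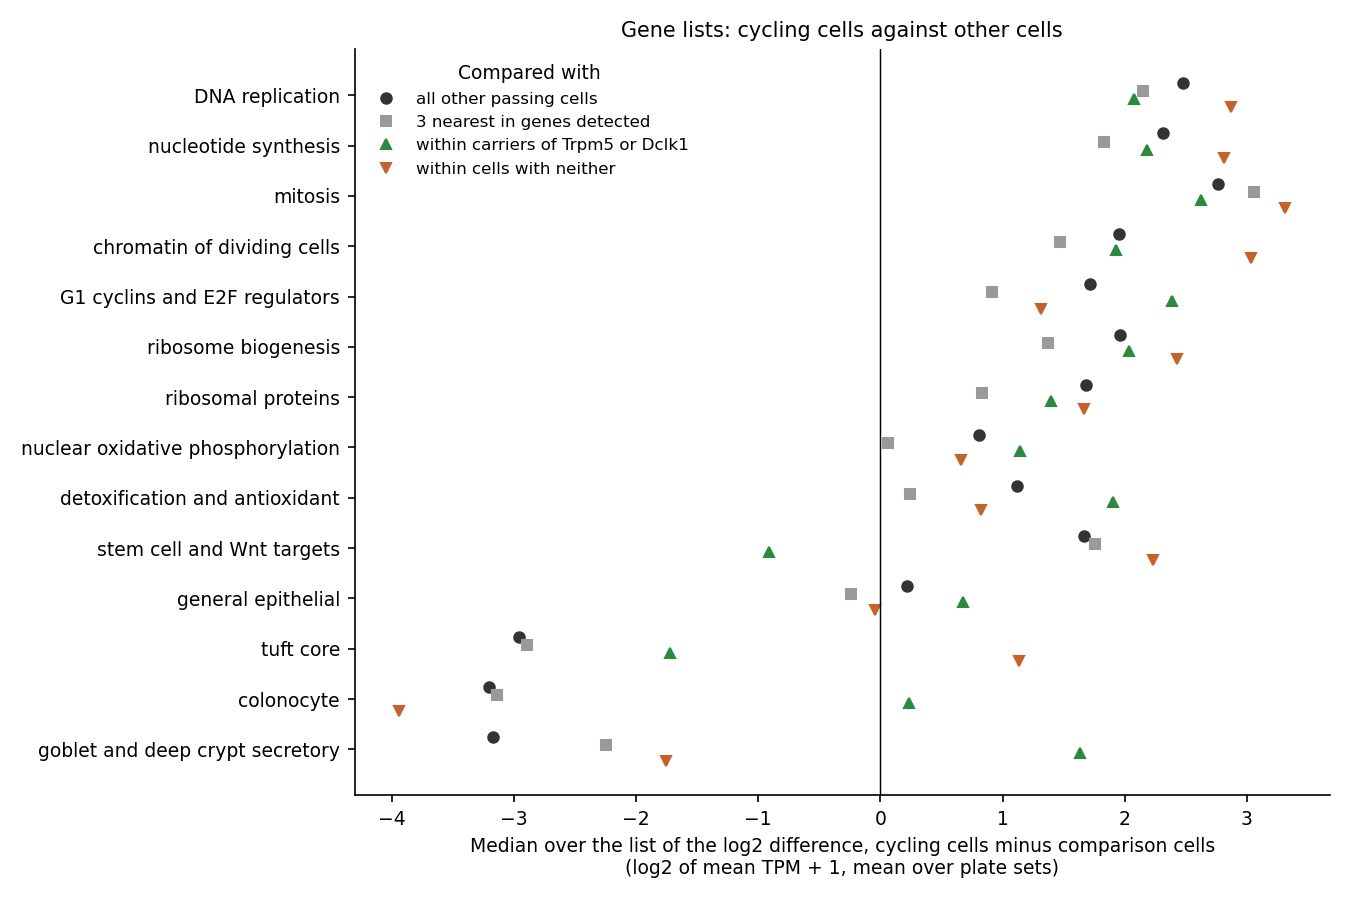
Median over the compared genes of each list (at least 3) of the log2 difference between cycling cells and 4 comparison classes: all other cells, depth-matched other cells, carriers within carriers, and non-carriers within non-carriers. The replication, nucleotide and mitosis lists lie between 1.83 and 3.32 in every comparison. The tuft list is negative except among non-carriers (1.13), the colonocyte list is lowest among non-carriers (-3.94), and the stem cell list is negative among carriers (-0.91). Non-carriers had a median of 1 other tuft core gene above 5 TPM, whether cycling or not. A single cycling non-carrier had 13, and its part in the value of 1.13 was not tested.

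Within the cycling cells, carriers and non-carriers were compared in plate sets 3, 4, 5 and 6, with at least 3 cells of each class. Of 3422 genes 2.98% were called higher in carriers and 8.5% lower, with a median of -0.38; centring on the median gene moved the share of calls that were higher from 25.95% to 58.2%. Of 16 tuft core genes compared, Trpm5 and Dclk1 among them, 10 were called higher and none lower. Trpm5 and Dclk1 set the classes, so their own differences are no finding. Alox5, the leukotriene-forming lipoxygenase, was at 21.1, 34.8, 7.54 and 24.9 TPM in carriers of sets 3 to 6 and was listed at 0 in the non-carriers of all 4 sets. Matk averaged 49.2 against 4.57 TPM (4.43 ± 2.17) and Fyb, an adaptor protein gene, 49.2 against 0.424 TPM (4.42 ± 1.93). Car1, a colonocyte gene, was at 68.8, 156.3, 101.5 and 1099 TPM in carriers and 0, 0, 58.2 and 18.5 TPM in non-carriers (5.01 ± 2.88). It was above 5 TPM in 21 of all 61 cycling cells. The summed colonocyte list of the highest carrier was 12694 TPM, against an upper quartile of 684 TPM in carriers. Whether that cell sets the Car1 mean of set 6 was not tested.

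Higher in the non-carriers were some crypt genes and a few cycle genes. Ascl2 averaged 1.60 TPM in carriers and 12.4 TPM in non-carriers (-2.63 ± 0.56), Smoc2 3.16 and 11.5 TPM (-1.67 ± 0.63) and Cdca7 9.57 and 26.3 TPM (-1.44 ± 1.05); 3 of 10 stem cell genes compared were called lower in carriers and none higher. Ascl2 fell under the floor without cells low in 18S ribosomal RNA (-2.30) or without plate set 3 (-2.89), and Smoc2 without plate set 3 (-1.71). Ifitm3, an interferon-induced membrane protein gene, was at 0, 0, 0 and 8.38 TPM in carriers and 21.1, 29.7, 110.99 and 22.6 TPM in non-carriers (-4.39 ± 2.27). Ffar2, a receptor for short-chain fatty acids, averaged 0.195 and 15.9 TPM (-3.76 ± 0.95), Rgcc, a regulator of the cell cycle, 2.26 and 30.8 TPM (-3.93 ± 2.25), and Hilpda, a lipid droplet protein gene, was listed at 0 in carriers and averaged 17.6 TPM in non-carriers. Of the replication list 4 of 25 compared were lower in carriers, among them Cdt1 at 8.75 and 20.1 TPM (-1.13 ± 0.55), and of mitosis none of 23 was lower and Nusap1 was higher (1.82 and under the floor without plate set 4). The label markers were not called either way: Gpx2 differed by -0.94 ± 0.61, Mgst1 by -0.12 ± 1.41, Sult1a1 by 0.24 ± 0.68 and Dmbt1 by -0.02.

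By genotype label, the cycling cells of plate sets 2, 4 and 5 were set beside those of wild type sets 1, 3 and 6. Ipmk itself averaged 0, 0.558 and 3.35 TPM in the wild type sets and 0.174, 21.1 and 0.917 TPM under the knockout label, and 7 of 61 cells had it above 5 TPM. The values overlapped, and at this level the targeted gene does not check the label. Of 3604 genes 24 (0.666%) were called higher under the knockout label, that is at least 2-fold with no overlap of plate sets, and 10.6% lower, with a median of -0.54. After centring 50.2% of the calls were higher instead of 5.9%. Without the cells low in 18S ribosomal RNA, all of whose cycling cells were wild type, the calls were 2.41% higher and 7.16% lower. That also dropped plate set 1, left with 4 cycling cells, so wild type was then sets 3 and 6. Leaving out plate set 1 alone gave 1.04% higher and 13.4% lower. Genotype, plate set and detected genes (4286 ± 445.4 in wild type and 4116 ± 937 under the label, mean of plate-set medians ± SD) cannot be told apart here.

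None of the 4 label markers outside the rule was called by genotype label; Gpx2 differed by -0.45 and Dmbt1 by 0.11. Of the G1 genes 2 of 9 were called lower. Cdk6 was at 77.1, 20.6 and 21.003 TPM in wild type sets and 15.4, 8.87 and 3.03 TPM under the label (-1.94), and Ccnd1 at 40.9, 25.96 and 13.8 against 4.81, 11.2 and 11.97 TPM (-1.39). Of the chromatin list 5 of 20 were lower, among them the methyltransferase gene Ezh2 at 5.09 against 23.7 TPM (-2.02), and of 20 replication genes 1 was higher and 1 lower. The largest called higher were Ifitm3, at 18.1, 14.9 and 55.5 TPM under the label against 0, 7.54 and 14.7 TPM (2.33), Txndc11, a thioredoxin-domain gene (2.30; 1.62 and under the floor without plate set 4), and Anxa5, annexin A5, at 19.8, 61.8 and 44.7 against 1.66, 15.1 and 13.5 TPM (2.20). Ifitm3 was above 5 TPM in 12 of the 61 cycling cells, and its level also differed by carrier class. The part of carrier shares in its difference by label was not tested. The largest lower were Rpusd3, a pseudouridine synthase of mitochondria (2.80 against 71.8 TPM, -4.22), and Dpm3, of mannose donor synthesis. Dpm3 was listed at 0 under the label and averaged 24.5 TPM in wild type, but only 4 of the 61 cycling cells had it above 5 TPM. Without cells low in 18S ribosomal RNA, and so without plate set 1, Ccnd1 (-0.94), Ezh2 (-0.38) and Ifitm3 (1.03) were not called. The parts of those cells and of plate set 1 in this were not separated.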

How the data were processed

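Single cells of mouse colon were profiled by Smart-seq2, and each well is a sample of its own. The deposited values are TPM, made by the authors with Bowtie2 2.4.2 and RSEM 1.3.3 on build mm10, per the submitters' processing notes; the sources used here state no annotation release, strand handling or read depth. RSEM assigns reads shared by near-identical genes by an estimate, so single members of such families are uncertain. Of 1203 wells, 19 were empty, 38 columns of 1 near-empty plate (at most 6 genes) were only counted, and 856 passed.

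The cycling cells and the gene lists were chosen with earlier results of these data known. From the authors' TPM values, means per plate set were compared as log2(mean TPM + 1) with plate sets weighted equally, which understates differences at low levels; this log2 scale was computed from the deposited TPM. Genes on the log2 scale were called at a floor of 10 TPM, a 2-fold difference and 1 sign in every plate set (no overlap for genotype). Named are the rule genes, label markers, Trpm5, Dclk1, Epcam, Ptprc and Ipmk, the 12 largest calls each way (6 within carriers, within non-carriers and by genotype, 8 between carrier classes) and up to 5 genes per list. Symbols of the forms Gm plus digits and Rik, mitochondrial genes, pseudogenes and clone names were not named, and 1 tuft core gene is not reported here. A few genes outside that rule, such as Olfm4, Aqp8 and Alox5ap, are given by value and were chosen after their values were seen. Alternatives were other pseudocounts, thresholds, filters, scalings, a depth-matched set, 1 gate alone and leaving out each plate set. No doublet caller was run. Python 3.11.15 with numpy 2.4.6, pandas 2.3.3, scipy 1.17.1 and matplotlib 3.10.9 was used, and the scripts were tested on simulated data.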

Additional observations from a re-analysis of the deposited data

Results flagged for a closer look

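In 5 genes and 1 share, a single plate set stood apart from the rest by Dixon's criterion for small groups. Chance flags about 1 in 20 groups, and the number of groups examined is not given here. The flags therefore cannot be set against that rate. The log2 difference of Nrm between cycling and other cells was 7.53 in plate set 4, where the median of the 6 plate sets was 2.92. That of Prdx4 was 4.87 in plate set 1 (median 3.27), and that of Shmt1 was 4.62 in plate set 1 (median 3.40). Spink1 was at -3.98 in plate set 6, where its median was -7.87; there 1 cycling cell had it. Top2a, a rule gene, was at 0.34 in plate set 5, with a median of 3.53. The share of cycling cells in the epithelial gate was 33.3% in plate set 4, where the median of the 4 plate sets with the knockout label was 10.8%, and it rests on 3 of 9 cells.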

How the results depend on the processing

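The share of cycling cells (5.14% to 9.98%) and of carriers among them (45.5% to 60.9%) moved by less than the spread between plate sets under every alternative run. The shares of compared genes that were called moved more. For all cycling cells, the share higher (25.5%) became 12.6% with a pseudocount of 10 TPM, 44.4% with means of log values over cells, 5.81% with no floor (1301 genes, but of 22400), 7.96% at matched depth, 42.3% with at least 5 of 8 rule genes, 16.7% with at least 2000 detected genes, 7.47% after rescaling without the most abundant entries and 11.3% after centring; leaving out 1 plate set gave 25.1% to 32.4%. The share lower (8.52%) became 5.21%, 5.45% and 3.45% under the first 3 of these, 13.9% in the tuft gate alone, 21.7% rescaled and 16.2% centred (8.04% to 10.1% without a plate set). Among carriers the share higher (34.2%) became 13.7% at matched depth and 14.6% centred (32.1% to 44.3%), and lower (11.1%) 6.01% with means of logs, 17.9% matched and 21.6% centred (9.87% to 17.8%, the highest without plate set 6). Among non-carriers higher (33.4%) became 50.6% with means of logs, 18.9% matched and 15.8% centred (30.4% to 45.3%), and lower (9.93%) 4.60% with means of logs, 20.4% centred and 16.3% without cells low in 18S ribosomal RNA (11.3% to 18.1%, the highest without plate set 3). Between carrier classes, centring gave 6.66% higher (from 2.98%) and 4.79% lower (from 8.50%), and leaving out a plate set 4.18% to 6.75%, the highest without plate set 3, and 10.4% to 19.5%, the highest without plate set 6. By genotype, higher (0.666%) became 3.83% centred and 2.41% without cells low in 18S ribosomal RNA (1.04% to 2.69%, the highest without plate set 5), and lower (10.6%) 6.13% with means of logs, 3.80% centred and 7.16% without those cells (11.4% to 20.6%, the highest without plate set 6). Fewer plate sets make the requirement of 1 sign or no overlap easier to meet. With means of log values the direction turned for Muc2 among all cells (0.19) and among non-carriers (0.14) and for Chek2 among carriers (0.71); the cause was not tested. Of 2052 values of named genes in the main comparison, 1931 stayed called or stayed uncalled as in the main run. A turn of direction was looked for only in genes called there. The alternatives without cells low in 18S ribosomal RNA, the centred ones and, within the carrier classes, the matched and leave-one-out ones were chosen after seeing the data.

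The main limits are the absence of animal labels, the confounding of genotype with plate set, classes of 3 to 18 cells per plate set, a threshold that cuts a continuous range of levels, wells that may hold more than 1 cell, and unknown read depth, so that a value of 0 TPM cannot be read as absence.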
